A study of Jaculus jaculus with 13 samples.

Results

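In the kidney of the male Jerboa 44 genes had their highest level in every dehydrated animal and a lower level both in controls and after rehydration. They were found among 24433 genes of a count table from a scaled count (CPM, the share of a gene in the total counts of the animal, scaled to a total of 1000000). The 44 were chosen by a rule that asked for 20 or more counts on average, a CPM in every dehydrated animal (DHM) above every control (CM) and every rehydrated animal (RHM), and a mean DHM CPM at least 1.5 times the mean of each other group. Of 13828 genes with that many counts, 153 (1.11%) had every DHM animal above all others, and 49 of these also reached the ratio. The study names 5 of the 49 by symbol, and these were left out. Since the rule was applied to the DHM values, the rise itself is given below as a description, and the tests of it, given once, follow from the choice of the genes.

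The animals were adult wild caught males of Jaculus jaculus, of unknown age, housed singly at constant temperature with dry food. RNA with poly-A tails was sequenced from the whole left kidney. The 4 controls drank freely, the 4 dehydrated animals had no water for 11 days, and the 5 rehydrated animals had no water for 7 days and then drank freely for 3 days. These times are those of the sample labels, and the methods of the study give other times for the DHM and RHM groups. No animal taken at the end of 7 days without water is in these groups, so the level from which the RHM animals started was not measured. Each animal is 1 replicate. In whole kidney a change in the number of cells of a type and a change in RNA per cell cannot be told apart.

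A mammal short of water concentrates its urine. Vasopressin from the posterior pituitary acts on the principal cells of the collecting duct, where the water channel AQP2 moves to the luminal membrane and water leaves the cell through AQP3 and AQP4. Sodium is taken up in the same cells through the epithelial sodium channel, and cells of the medulla hold osmolytes such as betaine, which SLC6A12 carries, against the salt around them. When water is drunk again this reabsorption is turned down.

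Total counts ranged from 14071802 to 22949762 per animal, so that 3 counts, the least read here as expression, correspond to 0.131 to 0.213 CPM. CM01 and RHM01 stood apart from their groups. The SD over detected genes of the log2 difference from the other animals of the group was 0.505 in CM01 and 0.540 in RHM01, against 0.329 to 0.382 in the other 11 animals. The study describes high immune genes in this pair and, in a supplement, also in DHM03, and a lower RNA integrity in its rehydrated samples. Values without CM01 and RHM01 and without DHM03 are given below, and the part of RNA integrity was not tested. The kidney label was checked against the water channels: AQP1, of the proximal tubule and thin limb, was at 327 to 1069 CPM and AQP2 at 98.7 to 797 CPM over the 13 animals.

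The table pairs no gene with a name, and of its identifiers 0 could be matched to the RefSeq gene table at hand. The genes are therefore numbered from 1 to 44 by the ratio of the mean DHM CPM to the higher of the other means, and placed by their scaffold in the JacJac1.0 assembly. What they encode is not described for this reason. The genes followed in each animal are the 12 with the largest ratio among those averaging 50 or more counts, and those called after rehydration. Genes 18, 20, 21, 27, 28, 31, 33 and 39 were added after their values were seen.

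Most of the rises were modest. The ratio to the higher of the other means had a median of 1.69, was 2 or more in 10 genes and lay under 1.6 in 13. Against controls alone the mean DHM CPM was 1.5 to 11.0 times as high (median 1.74), and against rehydrated animals 1.5 to 5.06 times (median 2.07). The difference from rehydrated animals was the larger in 30 of the 44 genes. At the edge of the rule, genes 43 and 44 had ratios of 1.504, and the nearest genes outside had ratios of 1.494 and 1.493.

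**Figure D1:**
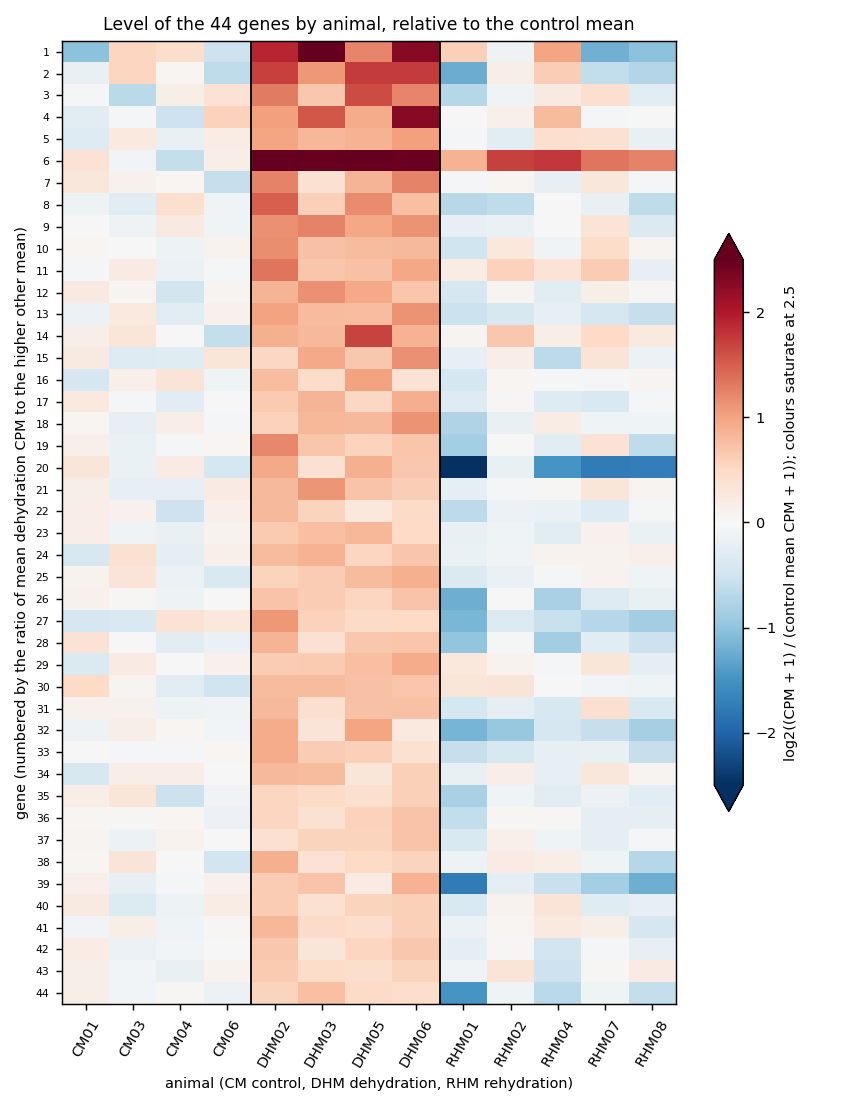
Level of each of the 44 genes (rows, numbered by ratio) in the 13 animals (columns) as log2 of the CPM plus 1 over the control mean plus 1, red above and blue below the control mean. The 4 DHM columns are red throughout, as the rule requires, while gene 6 also stays above control in the RHM columns and genes 20, 32 and 39 lie below it.

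The genes differed widely in abundance. The mean DHM CPM was above 100 in 7 genes, between 10 and 100 in 23 and under 10 in 14. In controls 35 of the 44 lay below the median detected gene in CPM per kilobase of exon length, with a median percentile of 30.5. Together they made up 0.50% to 0.597% of the counts in controls, 0.968% to 1.49% in dehydrated and 0.403% to 0.568% in rehydrated animals. Genes 1, 18 and 31 held 87.9% of the summed mean DHM CPM. Without these 3 the sum was still highest in the DHM animals, at 1312 to 1543 CPM, against 825 to 893 CPM in controls and 527 to 794 CPM after rehydration. That the DHM sums lie on top follows from the rule.

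Gene 1 (ENSJJAG00000018415, JH725443.1:3803795-3806038, 8 exon blocks, 855 exon bases) had the largest ratio, 4.72, and was among the most abundant. The CPM was 429, 1272, 1201 and 616 in CM01, CM03, CM04 and CM06. In DHM02, DHM03, DHM05 and DHM06 it was 3293, 8095, 2051 and 4261. After rehydration it was 1326, 805, 1742, 384 and 434 in RHM01, RHM02, RHM04, RHM07 and RHM08. The CM and RHM values overlapped, and both varied several fold within the group, so the means of 880 ± 420 (SD, n = 4) and 938 ± 587 CPM (SD, n = 5) have wide errors. In rehydration compared to control its log2 fold change of 0.08 ± 0.51 (standard error) had an adjusted p of 0.912 in edgeR, and the 95% interval of the fold change ran from 0.492 to 2.27. How near the RHM level lay to that of controls is known only to within about this range. With a block for the animal number the log2 fold change was 1.00 ± 0.25 (standard error), with an adjusted p of 0.0305 in edgeR. The numbers of RHM07 and RHM08, the lowest RHM animals for this gene, occur in no other group. Under the block these animals do not inform the comparison, so the 2 fits rest on different animals.

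Gene 21 (JH725443.1:3752169-3776875, 15 exon blocks) lies next to gene 1 on the scaffold, on the opposite strand, 26919 bases away and with no annotated gene between. Its CPM was 46.7, 36.6, 36.3 and 49 in controls and 74.4, 91.7, 69.7 and 65.1 in the DHM animals. The rehydrated animals were at 36.0, 41.5, 43.2, 52.1 and 44.5 CPM, within or just outside the control range. DHM03 had the highest level of both neighbours. The gene on the other side of gene 1, only 158 bases away, did not share the pattern, with a mean DHM CPM 0.958 times the higher of the other means. Of the 52 next genes along the scaffolds that were not themselves among the 44 and averaged 20 or more counts, 0 had every DHM animal above all others, against 0.791% of the 13784 genes with that many counts outside the 44. At so low a share a count of 0 in 52 genes shows no difference. Genes 1 and 21, being among the 44, are not in this count. The 44 genes lay on 39 scaffolds.

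Genes 31 and 18 were the other abundant ones. Gene 31 (JH725481.1:4456950-4462636, 9 exon blocks, 873 exon bases) was the most abundant of all, with 2780 ± 251 CPM in controls (SD, n = 4), 4460 ± 543 in dehydrated (SD, n = 4) and 2459 ± 681 CPM in rehydrated animals (SD, n = 5). It only just met the rule, since DHM03 with 3670 CPM was 1.004 times RHM07 with 3657 CPM, while the other RHM animals were at 2043 to 2373 CPM. Gene 18 (JH725460.1:26828560-26868412, 13 exon blocks) was better separated, at 986, 829, 1073 and 916 CPM in controls, 1411, 1694, 1671 and 2072 in DHM and 566, 838, 1088, 884 and 881 in RHM animals. For both genes the interval of the RHM to CM fold change was narrower than for gene 1, 0.692 to 1.11 for gene 31 and 0.690 to 1.15 for gene 18.

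Genes 2, 3, 4 and 8 were low in controls and had ratios of 2.36 to 3.73. Gene 2 (JH725524.1:1362796-1479061, 26 exon blocks) was at 2.36, 4.53, 2.98 and 1.46 CPM in controls, 11.5, 7.07, 11.8 and 11.9 in DHM and 0.613, 3.27, 4.88, 1.49 and 1.31 CPM in RHM animals. DHM03 was the low one of its group and still lay above RHM04, the highest animal outside it. Gene 3 (JH725526.1:6391618-6392745), a single exon of 1128 bases, was at 0.915 to 2.88 CPM in controls, 3.85 to 8.39 in DHM and 0.858 to 2.98 CPM in RHM animals. Gene 4 (JH725491.1:10833240-10854924, 23 exon blocks) rested more on 1 animal: the DHM values were 6.81, 10.2, 6.26 and 17.5 CPM, against 1.68 to 4.75 CPM in controls and 2.77 to 5.65 CPM after rehydration. Gene 8 (JH725440.1:1191549-1221779, 22 exon blocks) was at 2.83 to 5.2 CPM in controls, 6.09 to 12.2 in DHM and 1.90 to 3.71 CPM in RHM animals. The ratios of these genes were not tested against each other.

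Gene 9 (JH725511.1:8699808-8826197, 32 exon blocks) was the most even within the DHM group among the genes with a ratio above 2. It was at 46.3, 42.4, 54.2 and 42.7 CPM in controls, 104, 110, 91.1 and 103 in DHM and 39.9, 41.4, 46.6, 59.1 and 36.0 CPM in RHM animals. The lowest DHM animal was 1.54 times the highest other, one of only 3 genes with such a distance of 1.5 or more. The RHM animals lay on both sides of the control range, and their mean was close to that of the controls (log2 fold change −0.07 ± 0.13, standard error, adjusted p = 0.677 in edgeR) with an interval of the fold change of 0.784 to 1.15. On the scaffold it lies 384 kb from FST, with 3 genes between.

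Of the others among the 12, genes 10, 12, 14 and 15 had ratios of 1.93 to 2.06. Gene 10 (JH725523.1:5189294-5245163, 17 exon blocks) was at 2.02 to 2.53 CPM in controls, 4.53 to 6.43 in DHM and 1.35 to 3.55 CPM in RHM animals. Gene 12 (JH725458.1:29302966-29327663, 11 exon blocks) was at 9.04 to 15.3, 21.4 to 29.8 and 9.38 to 14.4 CPM in the same order. The RHM animals of gene 12 lay within the control range, and those of gene 10 spread to both sides of theirs. Gene 14 (JH725493.1:3545062-3649292) owed much of its ratio to DHM05, with 9.18 CPM beside 4.58 to 4.88 CPM in the other DHM animals. Gene 15 (JH725452.1:19061858-19066919) was at 8.74 to 14.2 CPM in DHM animals and at 3.33 to 7.60 CPM in all others.

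**Figure D2:**
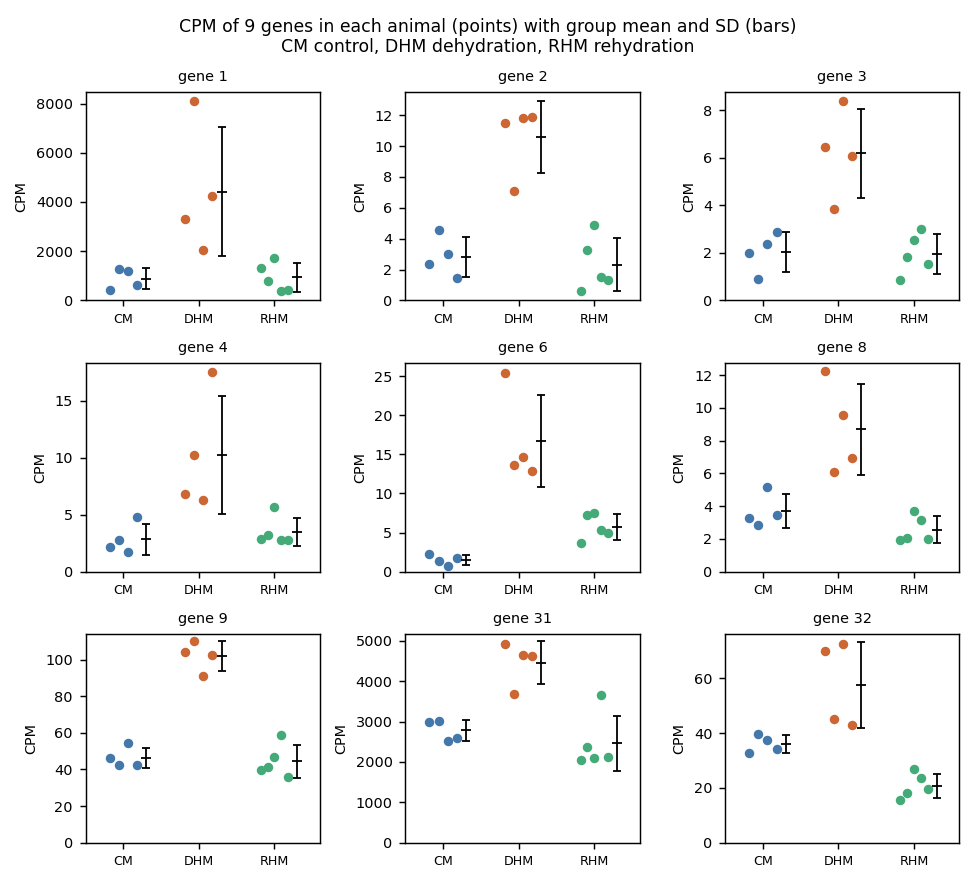
CPM (linear axes from 0) of 9 of the genes in each animal, with group mean and SD as bars. The DHM points of gene 1 range from 2051 to 8095 CPM, those of gene 9 only from 91.1 to 110 CPM, and in gene 31 RHM07 reaches the lowest DHM animal.

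The distance between the groups was small for many of the genes. The lowest DHM animal was 1.004 to 1.72 times the highest animal outside the group, with a median of 1.15, and under 1.1 times in 14 genes. The animal nearest to the DHM group was a control in 22 genes and a rehydrated animal in 22. Among controls it was most often CM01 (11 genes), and among rehydrated animals RHM07 (11) and RHM04 (8), while RHM01 and RHM08 were never nearest. Within the DHM group DHM02 was highest in 17 genes, DHM06 in 15, DHM03 in 7 and DHM05 in 5, and DHM03 and DHM05 were each lowest in 15. The median coefficient of variation was 15.6% in DHM animals, 20.5% in controls and 24.3% in RHM animals.

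**Figure D3:**
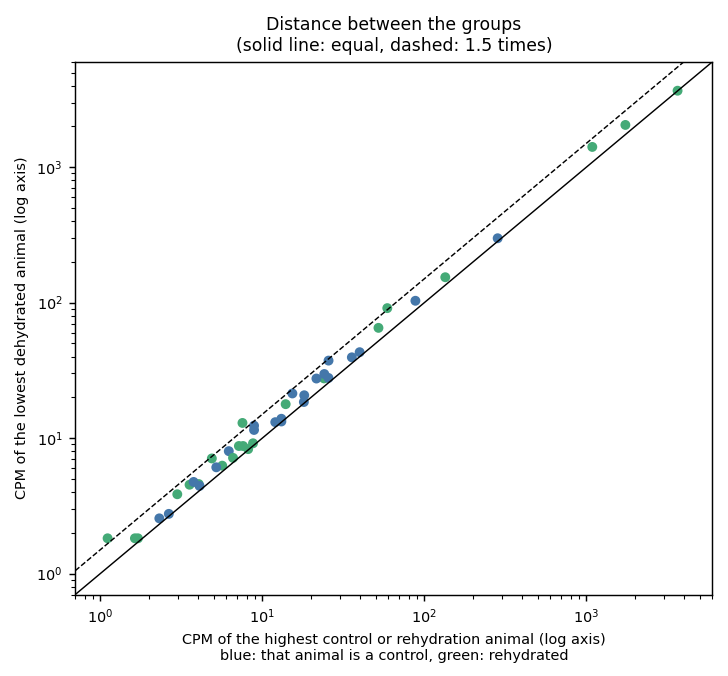
CPM of the lowest DHM animal against that of the highest CM or RHM animal for each of the 44 genes (log axes), blue where that other animal is a control and green where it is rehydrated. All points lie above the line of equality by the rule, and 3 reach the dashed line of 1.5 times.

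The number of genes found moved with the animals used. Without CM01 and RHM01 the rule found 65 genes, 40 of them among the 44. Without DHM05 it found 75 and without DHM03 68, in both cases with 42 of the 44, and without any 1 of the other animals 46 to 65. Fewer animals in a group make the rule easier to meet.

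Rehydration compared to control is the comparison that the rule did not set directly, but the rule keeps both the CM and the RHM animals below the DHM animals and so leaves out genes that move in steps from CM through DHM to RHM. The shares of all genes given beside the counts below are therefore a background from which no difference is read. The comparison asks whether the genes were at the control level after 3 days with water. In edgeR, with Benjamini-Hochberg adjustment of the quasi-likelihood p-values over the 15064 detected genes, the test called 2 of the 44 (4.55%) at 0.01, where 28.8% of all detected genes were called. At an unadjusted p under 0.05 there were 10 of the 44 (22.7%), against 51.3% of detected genes. The median log2 fold change of the 44 was −0.13, with 30 genes below and 14 above 0, beside a median of 0.03 over detected genes. The 95% interval lay within 2-fold of control for 28 genes (63.6%, all detected genes 61.3%) and within 1.5-fold for 18 (40.9%, all detected genes 30.2%). For the other genes the interval reached past these limits. Without CM01 and RHM01, 2 of the 44 were again called, 1 in each direction, beside 22.4% of detected genes, and the median was −0.09.

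**Figure D4:**
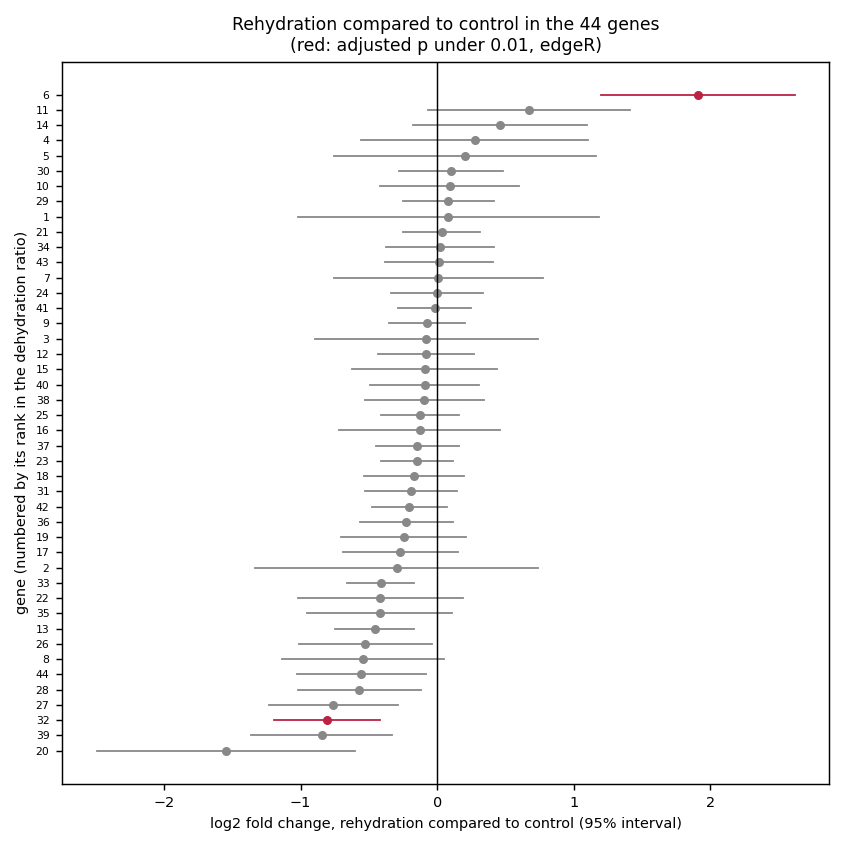
Log2 fold change in rehydration compared to control with its 95% interval for each of the 44 genes, in order of the value, red where the adjusted p was under 0.01. Gene 6 lies highest at 1.91 and gene 20 lowest at −1.55, and most intervals include 0.

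Gene 6 (ENSJJAG00000009663, JH725467.1:1005730-1012733, 15 exon blocks, 1853 exon bases) was the only one of the 44 that edgeR called higher after rehydration than in controls (1 of 44, 2.27%, against 12.5% of detected genes). It was low in controls, at 2.22, 1.39, 0.674 and 1.77 CPM. In DHM animals it was at 25.5, 13.7, 14.7 and 12.9 CPM, and in RHM animals at 3.62, 7.27, 7.54, 5.33 and 4.92 CPM. No groups overlapped, and every RHM animal lay between the CM and the DHM animals. It was the 1 gene of the 44 in which every RHM animal lay above every control, which 17.3% of the 13828 genes did. The mean DHM CPM was 11.0 times that of controls, the largest such ratio of the 44. In rehydration compared to control it was 3.76-fold higher (95% interval 2.30 to 6.13, adjusted p = 0.000545 by edgeR). With a block for the animal number this call was lost, at a log2 fold change of 1.78 against 1.91 (adjusted p = 0.044 in edgeR). The block leaves RHM07 and RHM08 out of the comparison, since their numbers occur in no other group. The RHM level of this gene thus lay below that of the DHM animals and above that of controls.

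Gene 32 (ENSJJAG00000015915, JH725464.1:23312161-23383875, 22 exon blocks, 4587 exon bases) was the only one called lower (1 of 44, against 16.2% of detected genes). It was at 32.7, 39.9, 37.5 and 34.2 CPM in controls, 69.8, 45.3, 72.5 and 43.1 in DHM and 15.6, 18.2, 26.8, 23.8 and 19.7 CPM in RHM animals. Every RHM animal lay below every control. Its log2 fold change was −0.80 ± 0.18 (standard error), and edgeR gave an adjusted p of 0.00298. The RHM level was 0.572 times that of controls (95% interval 0.438 to 0.748). With the block for the animal number, which leaves fewer animals to compare, this call was also lost.

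Genes 13, 20, 27, 28, 33 and 39 did not pass at 0.01 but had an adjusted p between 0.0106 and 0.0406, all with a negative log2 fold change. With genes 6 and 32 this makes 8 of the 44 (18.2%) at an adjusted p under 0.05, against 43.6% of detected genes. Gene 39 (JH725524.1:5476872-5523825, 17 exon blocks) was at 284, 226, 251 and 281 CPM in controls, 404, 426, 299 and 476 in DHM and 76.9, 222, 178, 145 and 112 CPM in RHM animals. Gene 33 (JH725546.1:4614353-4732705, 16 exon blocks) was at 20.3 to 21.6 CPM in controls and at 13.7 to 18.2 CPM in RHM animals. With gene 32 these are the 3 genes in which every RHM animal lay below every control (6.82% of the 44, against 18.9% of the 13828 genes). Gene 20 (JH725490.1:3469527-3716443, 23 exon blocks) had the most negative value, −1.55 with a standard error of 0.44, but RHM02 at 8.98 CPM lay within the control range of 7.37 to 13.1 CPM while the other RHM animals were at 0.919 to 3.10 CPM. Gene 13 (JH725520.1:7704543-7778938, 15 exon blocks) was at 17.6 to 25.6 CPM in controls, 37.3 to 47.8 in DHM and 14.1 to 18.5 CPM in RHM animals. DESeq2's Wald test called 6 of the 44 lower and 1 higher, against 19.2% and 16.9% of detected genes. The number of genes called lower thus depends on the tool.

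In the comparisons that the rule used, edgeR called 3 of the 44 in dehydration compared to control (genes 6, 9 and 13), where 0.312% of detected genes were called higher. At an adjusted p under 0.05 there were 27, all higher, against 3.11% of detected genes, and DESeq2 also called 27 higher, against 2.77%. In rehydration compared to dehydration it called 29, all lower, where 5.50% of detected genes were called lower, and DESeq2 called 40, against 10.2%. The median log2 fold changes of the 44 were 0.75 and −1.01, beside 0.00 and 0.00 over detected genes. These values follow from the choice of the genes.

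Of the 5 named genes that meet the same rule, 4 are described here beside the 44. AQP2 and AQP3, the water channels of the principal cell, had ratios of 2.91 and 3.24. FST, a secreted antagonist of activin ligands, had a ratio of 4.99, and SLC38A3, a glutamine transporter, had 2.53. FST, for example, was at 5.45 to 14.9 CPM in controls, 38 to 74.1 in DHM and 4.72 to 9.31 CPM in RHM animals. After rehydration these 4 had log2 fold changes of −0.63 (FST) to 0.23 (SLC38A3) against control, with an adjusted p of 0.0942 to 0.843 in edgeR.

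Listed genes of water conservation could be followed only where the study pairs a symbol with an identifier. Of 231 symbols in lists of tonicity, vasopressin, steroid, fasting, nitrogen, unfolded protein and BMP genes and of kidney cell markers, 15 were so paired and 14 detected. The study names these 14 in its account of these same animals, some of them as members of known families, and their counts are not independent evidence. They include the 5 named genes that meet the rule. In dehydration compared to control edgeR called 5 of the 14, all higher, among them SLC6A12, SLC38A3, FST and AQP3, beside 0.478% of detected genes called in either direction, and only SLC6A12 of these does not meet the rule. In rehydration compared to dehydration 7 were called, all lower, beside 8.19%, 5 of them genes that meet the rule. These counts thus largely repeat the rule. In rehydration compared to control 4 of the 14 were called (SLC6A12, SCNN1B and SCNN1G higher, AQP1 lower), beside 28.8%, which is about the same share. SLC6A12, the betaine transporter, was not among the rule's genes because RHM07 with 63.7 CPM lay above DHM03 with 59.8 CPM. It was still higher than control after rehydration (log2 fold change 0.77 ± 0.17, standard error, adjusted p = 0.00285 in edgeR), as gene 6 was.

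The principal cell list had 5 of its 12 markers paired. Their summed level was 389 to 630 CPM in controls, 1018 to 1338 in DHM and 505 to 698 CPM in RHM animals. The other markers, AQP4 and the sodium channel subunits SCNN1B and SCNN1G, summed to 151 to 264 CPM in controls, 239 to 308 in DHM and 337 to 434 CPM in RHM animals. This split of the list was made by the rule itself, which found AQP2 and AQP3, and in rehydration compared to dehydration edgeR gave AQP4, SCNN1B and SCNN1G an adjusted p of 0.651, 0.0430 and 0.202. AQP4 was at 0.0962 to 0.939 CPM, near the limit of detection. The part of cell composition in the 44 genes was not tested, and for proximal tubule, leukocyte and the other lists without a paired gene no marker level is given.

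The gene models were set beside those of all genes averaging 20 or more counts, without a test. The exon length had a median of 1504.5 bases, beside 1349 over the 13828 genes averaging 20 or more counts. Single exon models made up 5 of the 44 (11.4%, against 5.63%) and models with 20 or more exon blocks 8 of the 44 (18.2%, against 13.2%). The median span on the scaffold was 25508 bases, beside 18095 over the 13828 genes. Reads were counted without strand. Of the 44, 0 share exon bases with another annotated gene, beside 2.27% of the 13828 genes. The next pairs on a scaffold, genes 17 and 18, lay 1794 kb apart with 10 genes between.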

How the data were processed

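The data are RNA sequencing counts of whole left kidney from 13 male Jerboas. Per the labels and methods, the authors checked reads with FastQC 0.11.5, aligned them to JacJac1.0 and assigned them to genes with featureCounts of Subread 1.6.2. What the authors deposited are raw whole-number counts of each gene in each animal. Exon lengths are the gene lengths deposited in the same table. A further 2 per-sample columns, named CM05 and DHM07 in the manner of a control and a dehydrated animal, belong to no labelled sample and were left out. Statements about every CM or DHM animal cover the labelled animals only. Groups and animal numbers come from the labels.

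Counts were divided by column sums for CPM. The 15064 genes averaging 8 or more counts were fitted with TMM factors in edgeR 4.0.16 under R 4.3.3, the 3 groups in 1 model (quasi-likelihood test, Benjamini-Hochberg adjustment, called at an adjusted p under 0.01). DESeq2 1.42.0 was an alternative. Scripts ran in Python 3.11.15 and were tested on simulated data. The 44 genes, the lists and the tests were chosen with earlier results of these data known. The naming rule covered genes in the lists, the 12 largest ratios among genes averaging 50 or more counts, genes called in rehydration compared to control, and the 2 nearest on each side of the ratio of 1.5. As it asked for symbols, which the table lacks, positions are printed instead. Alternatives were other scaling, filters, thresholds, a fit of only 2 groups, a block for the animal number, an offset for gene length (smoothing span 0.3, chosen after seeing the data), and leaving out animals. As a check for repeated libraries, the counts of the animals of a group were compared in 22 pairs, and no pair agreed within counting noise. Errors are the spread between animals. One of the genes the study names is not reported here.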

Additional observations from a re-analysis of the deposited data

Results flagged for a closer look

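A value far from the rest of its group was looked for in the CPM of each of the 44 genes in each group, with Dixon's 95% limit on the gap to the nearest animal over the range. Of 132 such sets of 4 or 5 animals 12 passed the limit (5 in DHM, 5 in RHM and 2 in CM). In sets that no rule has chosen chance gives about 1 in 20, or 6.6, but the rule that chose the 44 used these same values, so that this is no expected number for them. DHM02 was the animal in 3 of them and RHM01 in 2.

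Among the genes described, gene 2 at JH725524.1:1362796-1479061 was low in DHM03, with 7.07 CPM against 11.5 to 11.9 in the other DHM animals. Gene 4 at JH725491.1:10833240-10854924 was high in RHM04, with 5.65 CPM against 2.77 to 3.17 CPM. Gene 6 at JH725467.1:1005730-1012733 was high in DHM02, with 25.5 CPM against 12.9 to 14.7 CPM. Gene 10 at JH725523.1:5189294-5245163 was also high in DHM02, with 6.43 CPM against 4.53 to 4.76 CPM. Gene 14 at JH725493.1:3545062-3649292 was high in DHM05, with 9.18 CPM against 4.58 to 4.88 CPM. Gene 31 at JH725481.1:4456950-4462636 was high in RHM07, with 3657 CPM against 2043 to 2373 CPM. RHM02 was the high animal for gene 20, at 8.98 CPM against 0.919 to 3.10 CPM. DHM02 was high for gene 27 as well, at 42.7 CPM against 27.8 to 30.0 CPM.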

How the results depend on the processing

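Of the 44 genes, edgeR called a pair in rehydration compared to control, 1 in each direction, and this pair, genes 6 and 32, was called in 21 of 22 fits each. The rule found 37 genes with TMM scaling (36 of them among the 44), 33 with DESeq2 size factors (32), 50 with a minimum mean count of 8, 32 with 100, 10 with a ratio of 2 and 145 with no ratio. With each animal left out in turn it found 46 to 75. Under the same omissions rehydration compared to control gave 1 higher gene and 1 to 5 lower genes (5 without RHM02, 3 without CM01, DHM02 or RHM04, 2 without CM03, CM04, DHM05, DHM06 or RHM07), 0 to 7 higher in dehydration compared to control (7 without RHM01, 0 without CM06, 1 without any of the DHM animals), and 14 to 28 lower in rehydration compared to dehydration (14 without DHM06, 15 without DHM02, 16 without DHM05 or RHM08, 19 without DHM03). Lower genes in rehydration compared to control were 7 at an adjusted p under 0.05, 6 with DESeq2, 3 with a minimum mean count of 50 and 2 with the offset for gene length. Genes higher in dehydration compared to control were 27 at 0.05 and 27 with DESeq2, against 3, and lower genes in rehydration compared to dehydration were 14 in the fit of only 2 groups, against 29. The causes were not tested.

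Of the 14 list genes, 5 were called in dehydration compared to control, 4 in rehydration compared to control and 7 in rehydration compared to dehydration. Leaving out each animal gave 0 to 6 (0 without CM06 or DHM05, 1 without CM04, DHM02 or DHM06, 2 without DHM03, 3 without CM01, CM03 or RHM08), 2 to 4 (2 without CM06) and 4 to 8 (4 without DHM05). Without CM01 and RHM01 2 were called in rehydration compared to control, and the fit of only 2 groups called 4 in rehydration compared to dehydration. These changes are likewise not read as particular to the list genes.

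The animal numbers of the labels occur in more than 1 group but share only a number. The deviations of same-numbered animals from their group means correlated at −0.0157 to 0.338 over 5 pairs. With the number as a replicate block, edgeR called 0 of the 44 genes in any of the 3 comparisons (at an unadjusted p under 0.05 it gave 31 in dehydration compared to control, 13 in rehydration compared to control and 36 in rehydration compared to dehydration), and 0, 1 and 0 of the 14 list genes (9, 6 and 9). The shares of all detected genes under the block are not given here. These counts are therefore not read as a result about the genes. Genes 6 and 9 lost their calls at a similar fold change. In dehydration compared to control the log2 value was 3.23 with the block against 3.41 in gene 6, and 1.24 against 1.09 in gene 9. In rehydration compared to control gene 6 had 1.78 against 1.91. Among the 12 genes with the largest ratio and genes 18, 21, 31 and 32, the block moved the fold change in rehydration compared to control by over 1.5 times in genes 1 and 4: the log2 value was 1.00 with the block against 0.08 in gene 1 (ENSJJAG00000018415, edgeR adjusted p = 0.0305) and 1.02 against 0.27 in gene 4 (adjusted p = 0.0496).

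Depth limits the genes at under 10 CPM, and the 4 or 5 animals per group limit all. The comparison of promoter motifs was not run, since no promoter sequence was matched to the identifiers.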
